A study of Mus musculus with 5 samples.

Results

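Transcripts of 8 genes typical of natural killer (NK) cells and of other cytotoxic lymphocytes were followed in single cells of mouse mammary tumors: the receptor genes Klra5, Klrd1, Klrk1, Klrb1c, Klrc1 and Ncr1, the protease gene Ctsw and the chemokine gene Xcl1. The members were taken by symbol, and all 8 were found among the 31053 genes of each count matrix. They were read in lymphocytes, defined as cells with at least 1 UMI (a counted transcript molecule) of Cd3d, Cd3e and Cd3g together or of Nkg7, a granule gene of cytotoxic cells. This gate held 4651 of 19533 cells.

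The tumors came from female FVB/N-Tg(MMTV-PyVT)634Mul/J mice, in which a mammary tumor virus promoter drives the polyoma middle T oncogene, so that the oncogene acts mainly in mammary epithelium of a host with its own immune system. From 7 weeks of age and for 6 weeks, the mice were injected with 5 mg/kg of either the VEGF-A-blocking antibody B20-4.1.1 or an isotype mouse IgG2a (clone C1.18.4). All mice carried the transgene, and no untreated or tumor-free group was analysed here. Viable cells of each tumor were tagged with multiplexing oligonucleotides, and 3 tumors were pooled in each of 5 droplet libraries, giving 6 isotype tumors in 2 pools and 9 B20 tumors in 3 pools. Each pool held tumors of 1 treatment, so pool and treatment cannot be told apart. The tumor was the replicate, and whether tumors came from separate mice is not given in the labels, so p-values measure the spread between these tumors. The kept cells of a tumor held between 3089430 and 21402317 UMIs.

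NK cells read their targets through paired activating and inhibitory receptors. In mice most of these are lectin-like proteins of the Klr family, encoded side by side in the NK gene complex of chromosome 6. Klra genes encode the Ly49 receptors, many but not all of which are known to bind class I molecules. Klrd1 encodes CD94, which pairs with NKG2 chains such as the inhibitory NKG2A encoded by Klrc1. Klrk1 encodes the activating NKG2D. Klrb1c encodes NK1.1. Ncr1 encodes NKp46, an activating receptor of the immunoglobulin superfamily that marks NK cells and group 1 innate lymphoid cells. Xcl1 attracts the dendritic cells that carry its receptor Xcr1, and Ctsw (cathepsin W) is a protease of NK cells and CD8 T cells. Several of these genes are also used by CD8 T cells and by γδ T cells of epithelial tissues, so none of them alone defines an NK cell.

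In the GRCm38 annotation (GENCODE M21), Klrb1c (chr6:128778485-128789215, minus strand), Klrd1 (chr6:129591782-129598775, plus strand), Klrk1 (chr6:129610323-129623864, minus strand), Klrc1 (chr6:129666015-129678973, minus strand) and Klra5 (chr6:129898996-129917650, minus strand) lay within 1.139 Mb. Ncr1 lay at chr7:4337724-4345164 on the plus strand, Xcl1 at chr1:164931644-164935527 on the minus strand and Ctsw at chr19:5465043-5468507 on the minus strand. The Klra genes are near-identical copies whose number differs between mouse strains, and the reads of these FVB/N mice were assigned to a reference of another strain, so counts of Klra5 and of other Klra genes are uncertain as to the copy.

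RefSeq promoter windows (GRCm38.p6) matched 6 of the 8 members. The 250 bases before the transcription start are shown for Klra5, Ncr1, Klrk1 and Xcl1, because these genes separated most clearly or, for Xcl1, had the most UMIs in the results that follow. Capitals mark the letters TGTGGT or ACCACA, the core bound by Runx factors, and GTGTGA or TCACAC, the core bound by T-box factors such as T-bet and Eomes, both read on either strand.
Klra5 (chr6:129913225-129913474, minus strand): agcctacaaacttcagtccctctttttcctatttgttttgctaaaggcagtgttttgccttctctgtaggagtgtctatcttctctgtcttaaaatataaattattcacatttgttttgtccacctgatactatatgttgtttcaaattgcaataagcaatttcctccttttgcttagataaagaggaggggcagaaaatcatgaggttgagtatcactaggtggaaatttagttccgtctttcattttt
Ncr1 (chr7:4337474-4337723, plus strand): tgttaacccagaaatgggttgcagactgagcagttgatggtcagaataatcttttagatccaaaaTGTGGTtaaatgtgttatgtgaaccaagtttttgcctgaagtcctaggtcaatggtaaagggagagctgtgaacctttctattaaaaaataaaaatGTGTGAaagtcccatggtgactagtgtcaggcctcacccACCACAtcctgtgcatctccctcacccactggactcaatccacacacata
Klrk1 (chr6:129623865-129624114, minus strand): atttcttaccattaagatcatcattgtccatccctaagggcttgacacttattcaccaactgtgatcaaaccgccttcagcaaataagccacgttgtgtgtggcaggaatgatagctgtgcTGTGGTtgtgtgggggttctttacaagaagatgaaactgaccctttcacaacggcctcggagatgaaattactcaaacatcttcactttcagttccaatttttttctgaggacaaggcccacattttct
Xcl1 (chr1:164935523-164935772, minus strand): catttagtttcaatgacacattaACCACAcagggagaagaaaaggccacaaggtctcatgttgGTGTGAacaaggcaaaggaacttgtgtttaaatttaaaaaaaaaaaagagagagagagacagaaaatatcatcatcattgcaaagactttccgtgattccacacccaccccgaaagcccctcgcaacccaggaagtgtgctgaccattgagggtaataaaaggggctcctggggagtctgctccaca
The Ncr1 window held the Runx letters at 185 and 50 bases and the T-box letters at 89 bases before the start. The Klrk1 window held the Runx letters alone, and the Xcl1 window held both motifs. The Klra5 window held neither, which says only that these letters are absent from these bases. That window lies before a RefSeq start inside the GENCODE span of Klra5 (chr6:129898996-129917650). The bases before the outer end of that span were not shown. Of the 32851 promoter windows searched, which did not cover every chromosome, 14.0% held the Runx letters and 12.3% held the T-box letters. No match of one motif overlapped one of the other in the members' windows. A match is a description of the sequence and does not show that a factor binds there.

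Many gated cells also carried transcripts of other cell types, and this is given before the results because it touched all of them. A cell was called mixed when at least 3 of 6 epithelial markers or 3 of 6 macrophage markers were detected. Mixed cells made up 51.2% of gated cells of isotype tumors and 32.1% of those of B20 tumors, and 73.5% and 64.5% of the cells that had Nkg7 but no Cd3 UMI. Their median depth was 9568 UMIs, against 4070.5 UMIs for the other gated cells. Each result is therefore given with the whole gate or with the 2878 cells that were not mixed (717 from isotype and 2161 from B20 tumors), and where the choice changed the call or direction of a named gene between the cell sets both values are given. Of the kept barcodes, 44 occurred in more than 1 pool and none in more than 1 tumor of a pool.

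All 8 genes were detected most often among Nkg7-positive cells, but not in the same ones. To compare cells of unequal depth, each cell was thinned to 2500 UMIs, and the cells that were not mixed were put in 3 sets: 146 cells with Nkg7 and no Cd3 UMI (Cd3-zero, median 4620.5 UMIs before thinning), 1529 cells with Nkg7 and Cd3 (median 4761 UMIs) and 1203 cells with Cd3 and no Nkg7 (median 3474 UMIs). Ctsw was detected in 80.1% of Cd3-zero cells and 73.7% of Cd3-positive Nkg7-positive cells, Xcl1 in 77.4% and 59.1%, and Klrd1 in 74.7% and 58.3%. These shares combine the cells of all tumors, and tumors rich in lymphocytes weigh most in them. With each tumor counted once, the medians over the tumors with at least 10 cells (8 for Cd3-zero and 15 for Cd3-positive Nkg7-positive cells) were 83.3% and 86.7% for Ctsw, 80.9% and 81.0% for Xcl1 and 80.6% and 66.7% for Klrd1. The share with Xcl1 in Cd3-positive Nkg7-positive cells ran from 15.3% to 100% over tumors. These 3 genes were therefore common to both Nkg7-positive sets, and the gaps between the combined shares of Ctsw and Xcl1 were not present in the medians.

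Klra5 and Ncr1 were spread in opposite ways. Klra5 was detected in 2.05% of Cd3-zero cells and 32.5% of Cd3-positive Nkg7-positive cells. Ncr1 was detected in 76.0% and 11.1% of the same sets. The activating receptor gene Klrk1 followed Ncr1, with 63.7% and 22.6%. The medians over tumors were 0% and 44.4% for Klra5, 81.5% and 14.3% for Ncr1 and 66.5% and 30.3% for Klrk1. The inhibitory chain gene Klrc1 was detected in 15.8% and 6.87%, and Klrb1c in 15.1% and 2.29%, so that these 2 genes were missed in most cells of either set at this depth.

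Cells with Cd3 and no Nkg7 held few of these transcripts: Ctsw in 10.1%, Klrd1 in 7.15%, Xcl1 in 3.49%, Klra5 in 0.998%, Klrk1 in 0.665%, Klrb1c in 0.499%, and Ncr1 and Klrc1 in 0.0831% each. Over the 12 tumors with at least 10 such cells, the median was 13.6% for Ctsw, 6.48% for Xcl1, 6.11% for Klrd1, 0.607% for Klra5 and 0% for the other members. Free RNA can put UMIs into droplets of cells that do not express a gene, so 12389 cells with at least 3 epithelial markers (median 8562 UMIs before thinning) served as a background. They were taken outside the lymphocyte gate, so droplets with any Cd3 or Nkg7 UMI were left out. The background may therefore be too low. In these epithelial-marker cells Xcl1 was detected in 1.02%, Ctsw in 0.694%, Klrd1 in 0.412%, Klra5 in 0.258% and the other members in at most 0.137%. Klrk1 was detected in 1.50% of 1465 cells with at least 3 macrophage markers. Combined detection in both Nkg7-positive sets was above these shares for every member. It was least so for Klra5 in Cd3-zero cells, where the share rested on 3 of 146 cells. The choice of background cells adds to these gaps by an amount that was not tested. The combined shares of Klra5, Ncr1 and Klrc1 among Cd3-positive Nkg7-zero cells were within 1 percentage point of the background.

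**Figure D1:**
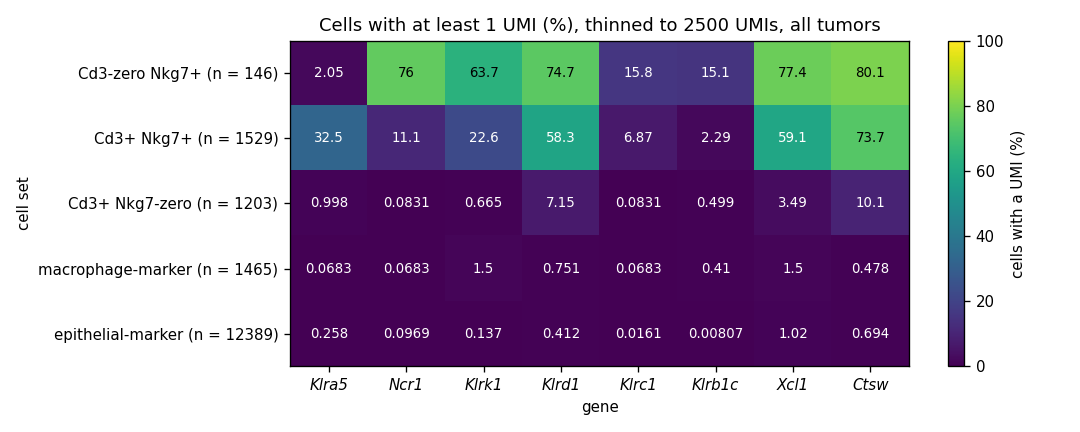
Share of cells with at least 1 UMI (%) of each member (columns) in each cell set (rows), with cells thinned to 2500 UMIs and all tumors combined; brighter fields stand for higher shares. Klra5 reaches 32.5% among Cd3-positive Nkg7-positive cells and 2.05% among Cd3-zero cells, whereas Ncr1 reaches 11.1% and 76.0%.

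The opposite spread of Klra5 and Ncr1 was then tested within tumors. Among Nkg7-positive cells that were not mixed, the UMIs of Cd3-zero and of Cd3-positive cells were summed per tumor and compared over all genes with edgeR's quasi-likelihood test, with the tumor as a block. Only the 8 tumors with at least 10 cells in both sets entered (3 isotype, 5 B20), and the other 7 were dropped. This comparison was chosen after the data had been seen. Of 2363 genes tested, 4.27% were called at an adjusted p below 0.05, with 63 higher and 38 lower in Cd3-zero cells. Of the 8 members, 3 were called (2 higher and 1 lower), 3 did not pass the test and 2 (Klrb1c and Klrc1) had too few counts to be tested.

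Klra5 was lower in Cd3-zero cells. Its level in Cd3-positive cells was 7.36, 4.85 and 6.17 UMIs per 10000 in the isotype tumors and 7.72, 4.11, 0.821, 11.7 and 6.49 UMIs per 10000 in the B20 tumors. In Cd3-zero cells of the same tumors, in the same order, it was 0.428, 0.151 and 0.605, and 0, 0, 0, 0.882 and 2.01 UMIs per 10000. The Cd3-zero level was the lower one in 8 of 8 tumors, and the ranges over tumors overlapped only through 1 B20 tumor with little Klra5 in either set (tumor 3 of B20 pool 2). The mean was 0.509 ± 0.687 against 6.15 ± 3.15 UMIs per 10000 (SD, n = 8 tumors), a log2 fold change of -3.58 ± 0.33 (standard error, adjusted p = 8.97e-08 by edgeR). With no UMI in 10 to 15 Cd3-zero cells of a tumor, up to 3 UMIs would still be allowed by counting error alone.

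Ncr1 was higher in Cd3-zero cells. Its level there was 9.41, 8.32 and 5.60 UMIs per 10000 in the isotype tumors and 8.11, 10.2, 8.07, 4.76 and 7.91 UMIs per 10000 in the B20 tumors. In Cd3-positive cells of these tumors it was 0.685, 1.73 and 1.35, and 1.49, 0.668, 0.415, 0.651 and 1.40 UMIs per 10000. The 2 sets did not overlap, and the lowest Cd3-zero value stood above the highest Cd3-positive value. The log2 fold change was 2.99 ± 0.20 (standard error, adjusted p = 3.33e-10 by edgeR, with 8 of 8 tumors higher).

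Klrk1 differed less but in the same direction as Ncr1. Its mean level was 5.42 ± 1.88 UMIs per 10000 in Cd3-zero cells and 1.80 ± 0.65 UMIs per 10000 in Cd3-positive cells (SD, n = 8 tumors), a log2 fold change of 1.61 ± 0.18 (standard error, adjusted p = 2.72e-06 by edgeR, with 8 of 8 tumors higher). The lowest Cd3-zero tumor had 3.85 UMIs per 10000 and the highest Cd3-positive tumor had 2.84 UMIs per 10000, so the sets did not overlap for this gene either. Klrd1, Xcl1 and Ctsw did not pass the test. Their log2 fold changes were 0.34 ± 0.16 for Klrd1 (adjusted p = 0.326), 0.19 ± 0.28 for Xcl1 (adjusted p = 0.83) and 0.01 ± 0.12 for Ctsw (adjusted p = 0.988, all edgeR), and the level of Xcl1 was 29.1 ± 12.2 against 27.2 ± 10.9 UMIs per 10000 (SD, n = 8 tumors).

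When mixed cells were kept, all 15 tumors could be compared and 52.8% of 5319 genes were called, 26.2% as higher and 26.6% as lower in Cd3-zero cells. Klra5 (log2 fold change -5.45) and Ncr1 (1.24, edgeR, adjusted p = 0.00026) were called in the same directions as before. Klrk1 (-0.24, not called), Klrd1 (-1.41), Xcl1 (-1.51), Ctsw (-1.74) and the gate gene Nkg7 itself (-1.41) turned below 0. The 3 isotype tumors without mixed cells all came from isotype pool 2, so leaving out isotype pool 1 changed nothing there. With each of the other 4 pools left out in turn, Klra5 ranged from -4.73 to -3.33, Ncr1 from 2.67 to 3.16 and Klrk1 from 1.29 to 1.89, and all 3 were called each time. Without B20 pool 3, 104 of 3782 genes were called, and Klrb1c and Klrc1 also had enough counts. Klrb1c was called higher in Cd3-zero cells (log2 fold change 3.47 ± 0.34, standard error, adjusted p = 6.7e-07 by edgeR, 6 tumors). Klrc1 was at 1.19 (adjusted p = 0.0929 by edgeR). Genes with few counts enter the test through the set in which they are high, so the call of Klrb1c gives no support of its own. No gene passed the test of the interaction of treatment and set (0 of 2363 with edgeR, 143 at an unadjusted p below 0.05; 0 of 5319 with mixed cells kept, 429 unadjusted).

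**Figure D2:**
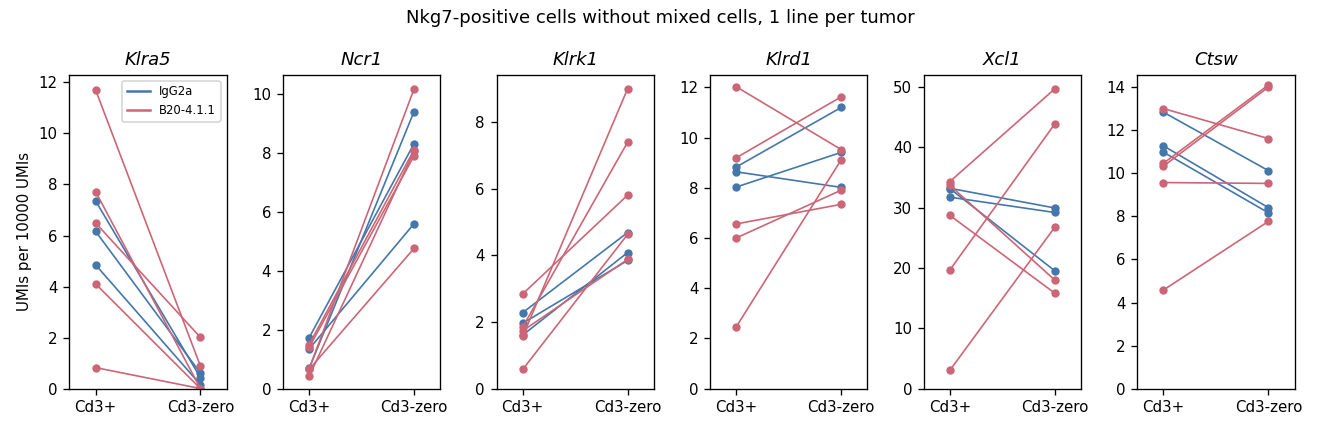
UMIs per 10000 UMIs of the members in Cd3-zero and in Cd3-positive Nkg7-positive cells without mixed cells, each line joining the 2 sets of 1 tumor, for the 8 tumors with at least 10 cells in both. The lines fall toward Cd3-zero cells for Klra5 in 8 of 8 tumors and rise for Ncr1 and Klrk1 in 8 of 8 tumors.

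Other genes of the NK gene complex were on the side of Ncr1 when mixed cells were left out. Of the 19 listed lectin-like receptor genes beside the members, 6 had enough counts to be tested, and the other 13 did not pass the filter on low counts or are not among the annotated genes. All 6 were called higher in Cd3-zero cells, where 2.67% of all tested genes were: Klre1 (log2 fold change 2.50), Klrb1b (2.24), Klra4 (1.71), Klrb1f (1.67), Klrb1a (1.49) and Klra7 (1.29). Genes enter the test through the set in which they are high, so this count gives no support of its own. Klra4 and Klra7 belong to the same Ly49 family as Klra5 and had the opposite direction there. With mixed cells kept, in 15 tumors, none of these 6 was called: Klrb1b was at 0.54 (adjusted p = 0.051 by edgeR), Klre1 at 0.42, Klrb1f at -0.02, Klra4 at -0.07, Klrb1a at -0.10 and Klra7 at -0.54. Of the 8 listed genes tested then, 0 were called higher and 2 lower (Klra1 at -1.77 and Klrc2 at -1.06), and the median was -0.08 against -0.02 over all genes. Klra4 and Klra7 then had the same sign as Klra5.

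Genes of receptor signalling and of killing were called in both directions. Of 8 tested adaptor and signalling genes, Tyrobp (DAP12, the adaptor of activating Ly49 receptors) was higher in Cd3-zero cells with a log2 fold change of 0.86, and Hcst (DAP10, the adaptor of NKG2D) was lower with -0.51. Of 7 tested cytolytic and chemokine genes, Gzma was higher (2.78) and Gzmb lower (-1.07). Of 3 tested regulators of NK cells and group 1 innate lymphoid cells, Il18r1, a chain of the interleukin-18 receptor (1.90), and Id2 (0.74) were higher. With mixed cells kept, Gzma (0.42, adjusted p = 0.495), Il18r1 (0.28, adjusted p = 0.233) and Tyrobp (-0.43, adjusted p = 0.226, all edgeR) were not called, and Tyrobp had the other sign. Hcst, Gzmb and Id2 were called in the same directions as without them. Of 6 tested genes of tissue residency, Cxcr6 (-0.78) and Itgae, the integrin chain CD103 (-0.61), were lower. Of 5 tested αβ T cell genes, 4 (Trac, Trbc2, Cd8a and Cd8b1) were lower, in step with the Cd3 genes that set the gate. Trbc1 was not among the called genes. It was detected in 82.9% of Cd3-zero and 56.6% of Cd3-positive Nkg7-positive cells, all tumors combined. With mixed cells kept, Trbc1 was called lower (-1.42). Of 3 tested γδ T cell genes, 1 was called: Trdc, the δ chain constant gene, was lower (-2.58). Of the 4 genes listed for regulatory T cells, 1 was tested. This gene, Ikzf2, was called lower (-2.045), and also with mixed cells kept (-3.43).

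The cells with Klra5 transcripts were described further, without a test, because they were chosen by a member. Klra5 was detected in 512 of the 2878 gated cells that were not mixed (17.8%). Of these 512 cells, 93.0% also had Xcl1, 92.2% Ctsw, 84.6% Klrd1, 35.2% Klrk1, 13.1% Ncr1, 8.79% Klrc1 and 1.76% Klrb1c. Most of them carried adaptor transcripts, with Fcer1g in 95.1% and Tyrobp in 85.5%, and 69.1% had the granzyme gene Gzmb. T cell receptor genes of both lineages were found. Of the αβ T cell genes, Trbc2 was detected in 78.1%, Trbc1 in 56.8% and Trac in 41.6%. Trgv2, a γ chain variable gene, was detected in 61.3%, Tcrg-C2 in 48.8%, Trdc in 39.3%, Tcrg-C4 in 35.9% and Tcrg-C1 in 26.4%. Cd8a was detected in 44.1% of Klra5-positive cells but Cd8b1, which encodes the partner chain of conventional CD8 T cells, in 5.47% (median over 14 tumors 2.94%), and Cd4 in 0.586%.

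The same picture was seen in single tumors when Klra5-positive and Klra5-zero cells were compared among Cd3-positive Nkg7-positive cells of 14 tumors. Trgv2 was detected in 63.6% ± 10.4 of Klra5-positive and 29.1% ± 15.0 of Klra5-zero cells (mean ± SD over tumors), and the share was higher in Klra5-positive cells in 14 of 14 tumors. Tyrobp (82.0% against 37.6%), Gzmb (62.9% against 32.6%) and Cd7 (94.5% against 63.4%) were also higher in 14 of 14 tumors. Xcl1 was detected in 92.5% against 64.8% and was higher in 13 of 14. Cd8b1 went the other way, with 6.12% against 33.1% and lower shares in 13 of 14 tumors. The other αβ T cell genes were divided. Cd5 (1.45% against 11.4%), Cd6 (1.71% against 10.2%), Cd28 (2.78% against 14.3%) and Cd4 (0.357% against 2.30%) were lower. Trac was at 45.6% against 53.3%, Trbc1 at 56.5% against 54.8% and Trbc2 at 78.7% against 76.4%. Cd8a was at 46.5% against 38.9% and was higher in 10 of 14 tumors. Klf2, which is high in recirculating lymphocytes, was detected in 7.38% against 32.8% and was lower in 14 of 14 tumors.

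Read from the side of the T cell genes, Klra5 was found in 62.6% of the 321 Cd3-positive cells that had Cd8a but not Cd8b1, and in 4.12% of the 680 Cd3-positive cells that had Cd8b1. It was found in 59.8% of the 525 Cd3-positive cells with Trgv2. Ncr1 was found in 3.74% of the cells with Cd8a and no Cd8b1 and in 0.441% of the cells with Cd8b1. The cells with Cd8b1 were not without the shared genes, since 48.5% had Ctsw, 29.9% Klrd1 and 16.0% Xcl1. These shares again combine all tumors. Over the 11 tumors with at least 10 cells with Cd8b1, the median was 69.2% for Ctsw, 50% for Klrd1, 38.6% for Xcl1 (range 5.80% to 100%) and 8.33% for Klra5 (range 0% to 60%). In the cells with Cd8a and no Cd8b1, the median over 13 tumors was 69.4% for Klra5 and 2.38% for Ncr1.

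Ncr1-positive cells were 282 of 2878 (9.80%). Of them, 89.7% had Ctsw, 88.3% Xcl1, 82.6% Klrd1, 62.4% Klrk1, 23.8% Klra5, 19.1% Klrc1 and 11.0% Klrb1c. The cells with and without Cd3 had different profiles. Among the 111 Cd3-zero ones, Klra5 was detected in 2.70%, Trgv2 in 0.901%, Trac in 1.80%, Klre1 in 42.3% and Gzma in 20.7%. Among the 170 with both Cd3 and Nkg7, Klra5 was detected in 37.6%, Trgv2 in 36.5%, Trdc in 37.1% and Cd8a in 7.65%. In these 170 cells Trbc1 was detected in 71.2%, Trbc2 in 58.8% and Trac in 26.5%. In the 111 Cd3-zero cells Trbc1 was detected in 92.8% and Trbc2 in 16.2%. Trbc1 was detected in 79.8% of all Ncr1-positive cells although Trac was detected in 16.7%. Klra5 and Ncr1 were found together in 67 cells, 2.33% of 2878 (exact Clopper-Pearson 95% interval 1.81% to 2.95%, for counting error only). The product of their 2 shares, which independence would give, was 1.74%. The groups differed in direction: 4.74% against a product of 7.19% in isotype cells, and 1.53% against 0.752% in B20 cells. These shares combine tumors of unlike composition.

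Within tumors, detection of 2 genes in the same cells was summarised by the phi coefficient, which is 1 when both are always found together and 0 when they are independent. It was taken over all gated cells, mixed cells included, thinned to 2500 UMIs, and is a description over cells that share a library. Over 15 tumors the mean coefficient was highest for Xcl1 with Ctsw (0.64), Xcl1 with Klrd1 (0.58) and Klrd1 with Ctsw (0.56). Klra5 with Xcl1 reached 0.49 and Ncr1 with Klrk1 0.45, with a range over tumors of 0.196 to 0.766. Klra5 with Ncr1 was at 0.05 (range -0.06 to 0.18) and Klra5 with Klrb1c at -0.01.

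**Figure D3:**
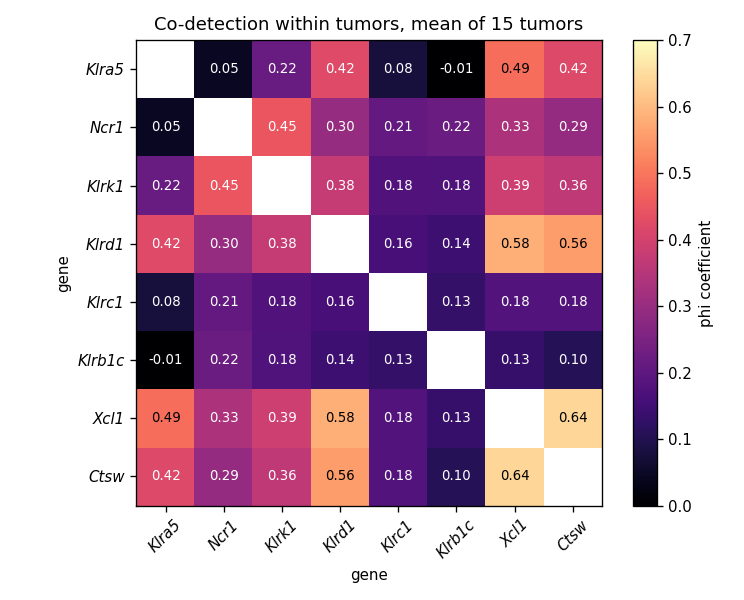
Phi coefficient of detection for each pair of members (rows and columns), computed within tumors among all gated lymphocytes, thinned to 2500 UMIs, and averaged over tumors. Xcl1, Ctsw and Klrd1 form the pairs with the highest values (0.56 to 0.64), Ncr1 has its highest value with Klrk1 (0.45), and Klra5 with Ncr1 is near 0.

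Outside the members, the 5 genes nearest to each member by this coefficient were taken from 10221 genes. Klra5 was nearest to Trgv2 (0.48), Cd7 (0.48), Gzmb (0.45), Fgl2 (0.45) and Fcer1g (0.44). Ncr1 was nearest to Fcer1g (0.35), Klre1 (0.32), Ctla2a (0.32), Car2 (0.30) and Klrb1a (0.30). Klrb1c was nearest to Klre1 (0.19), followed by Klri2, Klrb1a, Ctla2a and Prf1, and Klrc1 to its neighbour Klrc2 (0.29), a close copy with which reads may have been shared, followed by Trdc (0.19), Fcer1g, Nkg7 and Klre1. Xcl1 was nearest to Cd7 (0.64) and AW112010 (0.63), Ctsw to AW112010 (0.63) and Klrd1 to AW112010 (0.55), and the other nearest genes of these 3 and of Klrk1 came from the group of Nkg7, Cd7, Fcer1g, Ctla2a, AW112010 and Cd52.

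The study's own question was what VEGF-A blockade does to these tumors, and for these genes it was asked in 4 gates: all lymphocytes, Nkg7-positive cells, Cd3-positive cells and Cd3-zero Nkg7-positive cells. UMIs were summed per tumor and B20 was compared with isotype with edgeR's quasi-likelihood test over all genes. In these sums, fewer cells of a type and less RNA per cell cannot be told apart. In all lymphocytes, 0 of 8 members were called, and the background was the same: 0% of 10639 genes were called, 1533 had an unadjusted p below 0.05, and DESeq2 called 105 genes, none of them a member. Without isotype pool 2, B20 pool 1 or B20 pool 3, edgeR called 445, 6 and 78 genes, and again no member. The log2 fold changes of the 8 members lay between -0.70 and -0.21 with a median of -0.37, where the median of all genes was 0.03.

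Xcl1 had the most UMIs of the members. In lymphocytes of isotype tumors its level was 8.02 at the lowest, 9.56 at the median and 16.0 UMIs per 10000 at the highest. In B20 tumors it was 1.58 at the lowest, 6.93 at the median and 11.0 UMIs per 10000 at the highest. The groups overlapped, with 4 of 9 B20 tumors inside the isotype range and the other 5 below it. The log2 fold change was -0.70 ± 0.36 (standard error, adjusted p = 0.383 by edgeR). The share of cells with Xcl1, after thinning, was 47.4% ± 6.4 in isotype and 27.8% ± 16.2 in B20 tumors (SD, n = 6 and 9), a difference of -19.6 percentage points (two-sided exact permutation test, p = 0.0134, adjusted p = 0.271).

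The activating receptors gave smaller values of the same sign. Klrk1 was at 0.502, 1.08 and 1.13 UMIs per 10000 (lowest, median, highest) in isotype and 0.288, 0.675 and 0.938 UMIs per 10000 in B20 tumors, a log2 fold change of -0.53 ± 0.24 (adjusted p = 0.326 by edgeR). Ncr1 was at 0.486, 0.712 and 0.951 UMIs per 10000 in isotype and 0.190, 0.443 and 0.835 UMIs per 10000 in B20 tumors, a log2 fold change of -0.50 ± 0.22 (adjusted p = 0.311 by edgeR). For both genes the B20 tumors reached lower, and the ranges overlapped.

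The other lectin-like receptors, with Ctsw, did not differ beyond the spread of tumors either. Klra5 was at 1.22, 1.90 and 2.74 UMIs per 10000 in isotype and 0.294, 1.78 and 2.87 UMIs per 10000 in B20 tumors, a log2 fold change of -0.35 ± 0.42 (adjusted p = 0.743 by edgeR). The medians were close, and the highest value of all was that of a B20 tumor. Klrd1 had a log2 fold change of -0.34 ± 0.23 (adjusted p = 0.517), Klrc1 of -0.38 ± 0.42 (adjusted p = 0.723), Klrb1c of -0.21 ± 0.33 (adjusted p = 0.817) and Ctsw of -0.27 ± 0.22 (adjusted p = 0.588, all edgeR). Klrb1c rested on 70 UMIs in isotype and 114 in B20 tumors and Klrc1 on 176 and 233, so that differences of these genes were not detectable at this depth. Detection after thinning gave no call for any member or for any of 10221 genes (1334 at an unadjusted p below 0.05; the smallest p over these genes was 0.0001998).

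**Figure D4:**
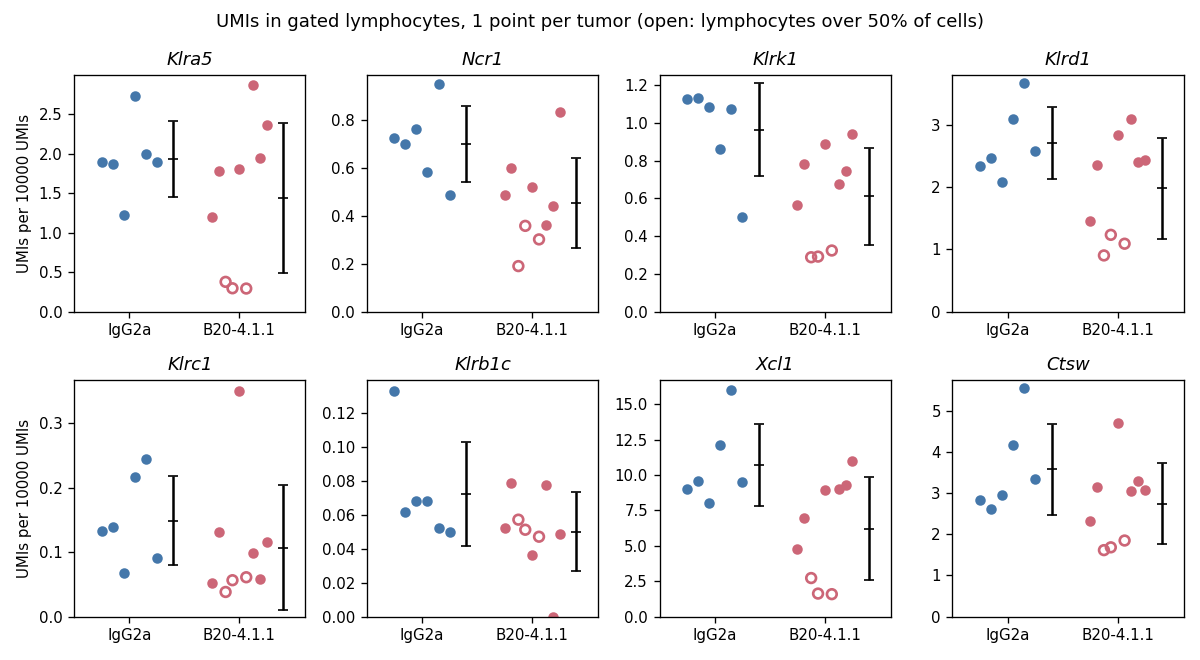
UMIs per 10000 UMIs of each member in gated lymphocytes, 1 point per tumor, with 6 isotype and 9 B20 tumors; open points are the 3 B20 tumors in which lymphocytes were the majority of cells, and bars show the group mean ± SD. The groups overlap for every member, and the open points lie at the bottom of the Klra5 and Xcl1 panels.

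The lowest B20 values of Klra5, Klrd1, Klrk1, Ncr1, Xcl1 and Ctsw came from the same 3 tumors. In tumor 3 of B20 pool 1 and in tumors 1 and 3 of B20 pool 2, gated lymphocytes were 67.4%, 76.1% and 77.3% of all cells, against 7.60% to 36.8% in the other 12 tumors. Klra5 was at 0.378, 0.297 and 0.294 UMIs per 10000 and Xcl1 at 2.72, 1.62 and 1.58 UMIs per 10000 in these tumors, the lowest levels of the series. Of their gated cells that were not mixed, 6.01%, 5.80% and 5.52% had at least 3 of the members, where the other tumors had 45.7% or more. Cd3-positive cells without Nkg7 made up 67.7%, 63.8% and 62.9% of their lymphocytes, against 27.8% to 56.1% elsewhere, and mixed cells 13.3%, 11.3% and 12.1%, against 38.0% to 68.6% elsewhere. The part of these differences in the levels above was not tested. Without these 3 tumors and without mixed cells, which was run after seeing the data, the log2 fold changes of the members in lymphocytes lay above 0 for Klra5 (0.38), Klrc1 (0.32), Ctsw (0.26), Klrd1 (0.22), Klrk1 (0.15), Xcl1 (0.14) and Ncr1 (0.08), and none was called. Klrb1c then had too few counts to be tested.

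The shares of cells in the gates were compared as well. Lymphocytes were 14.0% ± 5.9 of cells in isotype and 38.9% ± 27.1 in B20 tumors (SD, n = 6 and 9), a difference of 24.9 percentage points (two-sided exact permutation test, p = 0.0448, adjusted over 3 shares 0.0671). Nkg7-positive cells were 64.5% ± 6.6 and 49.2% ± 12.5 of lymphocytes (-15.3 points, exact permutation p = 0.0194, adjusted p = 0.0581). Cd3-zero Nkg7-positive cells were 14.5% ± 3.0 and 11.4% ± 7.4 of lymphocytes (-3.08 points, exact permutation p = 0.346). No share passed after adjustment over the 3. Without B20 pool 3 all of them did (36.9, -19.6 and -6.73 points, exact permutation, adjusted p = 0.013, 0.0325 and 0.0411), and without B20 pool 2 the share of Nkg7-positive cells did (-14.3 points, adjusted p = 0.026) while the difference in Cd3-zero cells turned to 0.188 points.

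Within Nkg7-positive cells the values of the members lay nearer to 0. The background was 0.0117% of 8535 genes called, no member was called, and the log2 fold changes ran from -0.52 for Xcl1 (adjusted p = 0.492 by edgeR) to 0.10 for Klrb1c. Among Cd3-positive cells, 0% of 10270 genes were called by edgeR (1353 unadjusted) and 34 by DESeq2. Ncr1 had a log2 fold change of -0.93 ± 0.23 there (adjusted p = 0.197 by edgeR), and by DESeq2 it was called, with -0.94 (adjusted p = 0.0482), the 1 member called by that tool. Klrk1 had -0.78 ± 0.24 (adjusted p = 0.235 by edgeR). Without mixed cells Ncr1 was at -0.80 ± 0.40 (adjusted p = 0.344 by edgeR), and without the 3 lymphocyte-rich tumors as well at -0.27.

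Among Cd3-zero Nkg7-positive cells the signs were the other way. The background was 1.15% of 4185 genes called, and 0 of the 5 tested members were called. Ctsw had a log2 fold change of 0.68 ± 0.26 (adjusted p = 0.263), Klrk1 0.69 (adjusted p = 0.37), Ncr1 0.54 (adjusted p = 0.552), Xcl1 0.50 (adjusted p = 0.552) and Klrd1 0.37 (adjusted p = 0.512, all edgeR). Klra5, Klrb1c and Klrc1 did not pass the filter on low counts. Mixed cells were most of this set, and without them, in 8 tumors, 0 of 1148 genes were called (77 unadjusted, DESeq2 not run there), Ncr1 was at 0.00 and Klrd1 at -0.08.

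**Figure D5:**
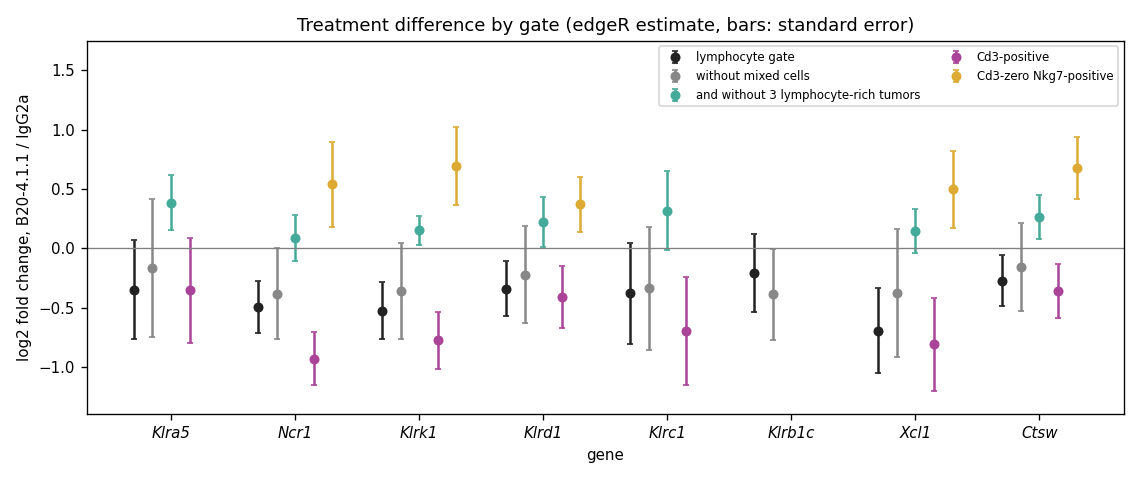
Log2 fold change, B20 against isotype, of each member (points, with bars of 1 SE from edgeR) in lymphocytes, in lymphocytes without mixed cells, in these without the 3 lymphocyte-rich B20 tumors, in Cd3-positive cells and in Cd3-zero Nkg7-positive cells. Values below 0 in all lymphocytes (-0.70 to -0.21) stand beside values above 0 once the mixed cells and the 3 tumors are left out (0.08 to 0.38), and no point was called by edgeR.

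The other genes of the pathway were read in lymphocytes in the same way, and no gene of any list was called there. Of 10 tested lectin-like receptor genes of 19 listed, all had log2 fold changes below 0, with a median of -0.64 against 0.03 over all genes; the values with the smallest p were Klra7 at -1.12, Klrb1f at -0.78 and Klre1 at -0.59. Of 12 adaptor and signalling genes, 6 were above and 6 below 0, among them Cd247 (1.58), Sh2d1a (1.50), Tyrobp (-0.55) and Sh2d1b1 (-0.61). Of 11 cytolytic and chemokine genes, 9 were below 0, including Tnfsf10 (TRAIL, -0.73), Fasl (-0.59), Gzma (-0.82) and Ccl5 (-0.46). Of 8 tested regulators, 6 were below 0, with Il2rb, the shared receptor chain for interleukins 2 and 15, at -0.81 and Tbx21 (T-bet) at -0.96. Of 6 genes of tissue residency, 5 were below 0, with Itgae at -1.09 (adjusted p = 0.153 by edgeR) and Itga1 at -1.14. The tested genes listed for circulating NK cells did not move together. Klf2, the gene of recirculation, was at 2.05, Itga2 at 0.06, Itgam at -0.20 and Cx3cr1 at -0.48.

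Marker lists of other cells moved beside these values. All 9 αβ T cell genes lay above 0 (median 1.67), as did all 6 genes of naive T cells (median 2.82), whereas the 4 γδ T cell genes lay below 0 (median -0.75). The summed level of the 6 naive T cell genes in lymphocytes ran from 0.745 to 3.27 UMIs per 10000 in isotype and from 0.452 to 18.6 UMIs per 10000 in B20 tumors. Its median over tumors was not higher in B20 tumors, at 1.36 against 1.64 UMIs per 10000 in isotype tumors. The 9 αβ T cell genes summed to a median of 9.36 UMIs per 10000 in B20 and 10.6 in isotype tumors. Their highest values were 37.5 and 12.7 UMIs per 10000. The 6 epithelial markers, all of them present, summed to 20.3 to 41.7 and 13.0 to 58.4 UMIs per 10000, and without mixed cells to 1.67 to 2.35 and 1.31 to 2.59. The 6 macrophage markers, also all present, summed to 5.37 to 14.7 and 3.20 to 19.6 UMIs per 10000. The 4 neutrophil markers summed to 1.42 to 98.8 UMIs per 10000 in isotype tumors, with the highest values in isotype pool 1, and to 0.149 to 22.3 in B20 tumors. The part of these cells and of their RNA in the treatment values was not tested.

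Ligands of the receptors were read in the tumor cells. H2-T23 encodes Qa-1b, the class I molecule bound by CD94 with NKG2A, and Clec2d encodes a ligand of the Klrb1 family. In epithelial-marker cells, H2-T23 was detected in 56.6% and Clec2d in 42.1% of 12389 cells, whereas the NKG2D ligand genes were rare, with H60b in 1.28%, Ulbp1 in 0.323% and Raet1e in 0.113%. Between treatments, 13.7% of 12019 genes were called in these cells, 7.14% as higher in B20 tumors. H2-T23 was higher in B20 tumors with a log2 fold change of 0.29 ± 0.09 (standard error, adjusted p = 0.0446 by edgeR), and Clec2d was at 0.07 (adjusted p = 0.598). H2-T23 was no longer called when the pool entered as a random effect (0.29, adjusted p = 0.247), with sums per pool (0.29, adjusted p = 0.633) or with no filter on low counts (0.28, adjusted p = 0.0836), nor without isotype pool 1 (0.12, adjusted p = 0.517), B20 pool 1 (adjusted p = 0.0957) or B20 pool 2 (adjusted p = 0.134). In lymphocytes the values of both ligand genes were larger but not called. They were 0.48 for H2-T23 (adjusted p = 0.128) and 0.55 for Clec2d (adjusted p = 0.292, both edgeR). Xcr1, the receptor of Xcl1, was detected in 0.478% of macrophage-marker cells and 0.129% of epithelial-marker cells. Dendritic cells were not gated as a set, so these shares do not show how often Xcr1 occurred in them.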

How the data were processed

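Per the labels and the study's methods, sorted viable cells were tagged with multiplexing oligonucleotides, pooled and profiled with a 10x Chromium 3' kit. The authors aligned and counted reads with Cell Ranger 6.1.2 against mm10, assigned droplets to tumors and deposited raw UMI counts per tumor, with no normalization; bcl2fastq and Seurat 4.3.0 are named in the submitters' processing notes. The counts hold 30340 cells. Cells with 2500 to 27500 UMIs and at most 20% mitochondrial UMIs were kept here (19533, 10630 isotype and 8903 B20). No doublet caller was run, and cells with at least 3 markers of another type were treated as mixed instead. Intervals and upper limits cover counting error only.

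UMIs were summed per tumor and gate and tested with edgeR 4.0.16 (TMM, filterByExpr, quasi-likelihood test, Benjamini-Hochberg adjustment, threshold 0.05) in R 4.3.3. Alternatives used DESeq2 1.42.0 and limma 3.58.1, and for detection an exact permutation test over the tumors in Python 3.11.15 (scipy 1.17.1). All tests across genes were first tested on simulated data. Sets with under 10 cells in a tumor were left out. The members and the gene lists were chosen with earlier results of these data known. Every member is named. Of each list up to 4 genes with the smallest p in the lymphocyte test are named as examples for the treatment. For the comparison of cell sets, each gene of a list called without mixed cells is named. The 5 genes with the highest phi coefficient are given for each member. The T cell, adaptor and other genes in the description of Klra5-positive and Ncr1-positive cells, and Clec2d, H60b, Ulbp1, Raet1e and Xcr1, were named after their values were seen. The classes of high and low hypoxia used in the study are not in the labels and were not compared. Gene coordinates are from GENCODE M21 (GRCm38), promoter sequences from RefSeq GRCm38.p6.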

Additional observations from a re-analysis of the deposited data

Results flagged for a closer look

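In 7 of 70 sets of 4 to 10 tumors, 1 tumor stood apart from the others of its group by Dixon's criterion at the 95% level, which chance alone meets in about 5% of sets. They concern Klrb1c, Klrc1 and Klrk1. Klrb1c was high in tumor 1 of isotype pool 1, at 0.133 UMIs per 10000 in lymphocytes, 0.273 in Nkg7-positive cells and 0.622 in Cd3-zero Nkg7-positive cells, where the set held 11 cells. Klrk1 was high in the same tumor and set, at 2.36 UMIs per 10000. Klrc1 was high in tumor 2 of B20 pool 2, at 0.35 UMIs per 10000 in lymphocytes, 0.59 in Nkg7-positive cells and 0.303 in Cd3-positive cells.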

How the results depend on the processing

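No paired analysis was possible because pools of different treatment share no number in the labels. Of the log2 fold changes between treatments for the members, 375 alternatives gave the same direction and call, 45 another direction and 1 a call: Ncr1 in Cd3-positive cells with DESeq2 (-0.94). The 64 alternatives for detection kept the direction and gave no call. Leaving out lymphocyte-rich tumors, or combining that or the pool block with leaving out mixed cells, and the whole comparison of Cd3-zero with Cd3-positive cells were chosen after seeing the data. Where a cause is not plain from fewer samples or genes, the cause was not tested.

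Genes called in lymphocytes, Nkg7-positive, Cd3-zero and Cd3-positive cells numbered 0, 1, 48 and 0. With DESeq2 they were 105, 46, 74 and 34, without a filter on low counts 3, 1, 77 and 2, with sums per pool 2, 0, 9 and 2, and without the 3 lymphocyte-rich tumors 50, 8, 24 and 24. Without these tumors and mixed cells they were 1, 6, 1 and 1. Thinning gave 3 in Nkg7-positive and 14 in Cd3-zero cells, leaving out mixed cells 10 and 0, and the pool block 0 and 7, or 0 and 0 with mixed cells left out as well. With each pool left out they ranged from 0 to 445, 0 to 191, 6 to 70 and 0 to 292. In epithelial-marker cells 1649 genes became 13 with the pool block, 1 with sums per pool and 291 to 5376 with a pool left out. The 101 genes of the comparison within tumors became 2807 with mixed cells kept and 59 to 115 with a pool left out (59 without isotype pool 2). Isotype pool 1 gave no tumor to that comparison.

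Without mixed cells and the 3 tumors, the treatment values above 0 were, in lymphocytes, Nkg7-positive and Cd3-positive cells, 0.38, 0.37 and 0.44 for Klra5, 0.32, 0.31 and 0.12 for Klrc1, 0.26, 0.28 and 0.23 for Ctsw, 0.22, 0.20 and 0.23 for Klrd1, 0.15, 0.16 and 0.003 for Klrk1 and 0.14, 0.14 and 0.10 for Xcl1, and for Ncr1 0.084 and 0.12 in the first 2. In Cd3-zero cells Klrd1 turned to -0.084 and Ncr1 to -0.016 there, Klrd1 to -0.077 without mixed cells alone, and with the pool block added Klrd1 to -0.082 and Ncr1 to -0.012. Without the 3 tumors alone, Klra5 turned to 0.11 in lymphocytes, 0.12 in Cd3-positive and 0.24 in Nkg7-positive cells, where Ctsw turned to 0.10, Klrd1 to 0.063 and Klrc1 to 0.086. In Nkg7-positive cells Ctsw turned to 0.036 with sums per pool, and Klrb1c to -0.046 with a minimum of 1000 UMIs and to -0.20 without mixed cells and with the pool block.

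With a pool left out, the members that changed direction ranged as follows. In lymphocytes Ctsw ranged from -0.61 to 0.17 and Klrc1 from -0.81 to 0.14. In Cd3-positive cells Ctsw ranged from -0.72 to 0.10 and Klrc1 from -1.20 to 0.022. In Nkg7-positive cells Ctsw ranged from -0.37 to 0.37, Klra5 from -0.57 to 0.11, Klrd1 from -0.41 to 0.16, Klrb1c from -0.20 to 0.30 and Klrc1 from -0.55 to 0.35. Within tumors Xcl1 ranged from -0.32 to 0.53 and Ctsw from -0.12 to 0.23, and with mixed cells kept Klrd1 was at -1.41, Klrk1 at -0.24, Xcl1 at -1.51 and Ctsw at -1.74. Differences in shares ranged from 12.7 to 36.9 points for lymphocytes, from -19.6 to -11.7 for Nkg7-positive and from -6.73 to 0.188 for Cd3-zero cells, which were at 1.10 points without mixed cells and 1.30 without the 3 tumors. Klrb1c and Klrc1 rested on few UMIs per tumor, and Cd3-zero cells without mixed cells numbered 16 or fewer in every tumor, which limits both.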
